A study of Mus musculus with 22 samples.

Results

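Cyp2c70 and 9 of its relatives in the Cyp2c cytochrome P450 family, Cyp2c29, Cyp2c37, Cyp2c38, Cyp2c39, Cyp2c40, Cyp2c50, Cyp2c54, Cyp2c67 and Cyp2c69, were followed across 4 groups of livers. The genes were taken by symbol: all 10 were found, among 24011 genes measured. Each of the 22 female C57BL/6J mice was 12 weeks old and gave total liver RNA for 1 Affymetrix mouse gene array. The groups were wild-type mice on regular chow (WT_chow, n = 5), wild-type mice on chow with 0.1% ursodeoxycholic acid (UDCA), a hydrophilic bile acid (WT_UDCA, n = 6), Cyp2c70 knockout mice on chow (KO_chow, n = 5) and knockout mice on the UDCA diet (KO_UDCA, n = 6). UDCA was fed for 7 weeks from an age of 5 weeks. The labels name the genotype alone, so how the allele was made and which part of the gene it removes are not stated here. Signal is in log2 units of the deposited intensity, differences are log2 changes with their standard error (SE) from limma, and a gene was called at a limma adjusted p below 0.05 over all 24011 genes. KO_chow replicates 2 and 5 stood apart from the other mice in many genes, so results that rest on them are given with and without them. The pair was singled out from these same values and was the lowest of KO_chow in 8 of the 9 relatives. Leaving it out shrinks those differences in advance, so that fit describes dependence on these mice and is not a separate test. The arrays had medians between 4.845 and 4.959, and the hepatocyte gene Alb read 13.02 in both wild-type groups, whereas the hepatocyte marker Ass1 stayed near the array median (4.616 in WT_chow).

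Cytochrome P450 enzymes of the Cyp2c family sit in the membrane of the endoplasmic reticulum, mostly in hepatocytes, and add oxygen to fatty acids, retinoids, steroids, bile acids and drugs. In mice the family has expanded into a cluster of closely similar genes. Cyp2c70 is known for hydroxylating chenodeoxycholic acid and UDCA to muricholic acids, the hydrophilic primary bile acids of mice. Several relatives turn arachidonic acid into epoxides or hydroxy acids, and many are controlled by the nuclear receptors CAR and PXR and by the hepatocyte factor HNF4A. By the order of genes in RefSeq, all 10 lie on chromosome 19, in the order Cyp2c29, Cyp2c39, Cyp2c38, Cyp2c67, Cyp2c40, Cyp2c69, Cyp2c37, Cyp2c54, Cyp2c50 and Cyp2c70, so Cyp2c70 stands at the end of the run. Because the genes are alike in sequence, a probe set named for one may also read RNA of another; the probe sequences were not used here.

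Proximal promoters are printed as a description of the genes. A link between their sequence and the variation of signal from mouse to mouse was not tested. RefSeq promoters of build GRCm38.p6 were available for 9 of the 10 genes, with Cyp2c54 not among them and Cyp2c39 listed with more than 1 start. Only 1 of the Cyp2c39 windows is printed. The other lies at chr19:39510716-39510762, also holds CAAAGTC and differs from the printed one at 4 of 47 positions. The first line gives the 250 bases before the start of Cyp2c70, and the others give 47 bases around the same letters in 6 relatives. Capitals mark CAAAGTC, the core of the HNF4 motif CAAAGTCCA.
Cyp2c70, chr19:40187287-40187536, minus strand: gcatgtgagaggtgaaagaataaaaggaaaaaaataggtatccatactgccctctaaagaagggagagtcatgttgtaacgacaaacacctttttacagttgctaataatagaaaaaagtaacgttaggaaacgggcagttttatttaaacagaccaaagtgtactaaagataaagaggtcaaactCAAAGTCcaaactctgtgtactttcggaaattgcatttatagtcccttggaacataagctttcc
Cyp2c29, chr19:39286956-39287002, plus strand: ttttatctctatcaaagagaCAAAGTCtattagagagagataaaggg
Cyp2c37, chr19:39992288-39992334, plus strand: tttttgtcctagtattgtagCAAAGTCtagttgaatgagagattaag
Cyp2c39, chr19:39347212-39347258, plus strand: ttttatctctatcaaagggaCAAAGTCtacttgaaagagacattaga
Cyp2c40, chr19:39812833-39812879, minus strand: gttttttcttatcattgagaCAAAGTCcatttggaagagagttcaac
Cyp2c67, chr19:39649141-39649187, minus strand: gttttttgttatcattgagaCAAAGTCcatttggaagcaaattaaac
Cyp2c69, chr19:39886818-39886864, minus strand: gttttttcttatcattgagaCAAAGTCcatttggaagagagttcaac

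The core CAAAGTC was present on either strand in 7 of the 9 genes with a promoter, in all but Cyp2c38 and Cyp2c50, against 3.84% of the 32851 promoters of the same length. The longer CAAAGTCCA, which contains the core, was present in 4 of them, Cyp2c40, Cyp2c67, Cyp2c69 and Cyp2c70, against 0.384% of all promoters. Both motifs were chosen after the sequences were seen, and a match is a description of letters, not a binding site. The nuclear receptor half-site AGGTCA stood in Cyp2c29, Cyp2c39 and Cyp2c70 (3 of 9, against 14.0% of promoters). For Cyp2c39 it was found before the start whose window is printed, and not before the other. TATAAA was found in 4 of 9, against 12.4%. The printed windows of Cyp2c40 and Cyp2c69 differ at 0 of 47 positions and those of Cyp2c40 and Cyp2c67 at 5. The 250 bases were also aligned in pairs, and identity counts only bases set against a base. Cyp2c40 and Cyp2c69 were the same at 217 of 220 aligned bases (98.6%). Cyp2c67 and Cyp2c69 were the same at 186 of 200 (93.0%), and Cyp2c37 and Cyp2c50 at 214 of 242 (88.4%). Cyp2c70 aligned with no relative over more than 80 bases.

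Cyp2c70 was lower in both knockout groups on both diets, and UDCA did not measurably move it in either genotype. In WT_chow the 5 mice read 11.62, 11.57, 11.56, 11.41 and 11.28, and in KO_chow 10.83, 10.65, 10.58, 10.67 and 10.52. In WT_UDCA the lowest mouse read 11.22, the median 11.46 and the highest 11.58, and in KO_UDCA these were 10.27, 10.49 and 10.74. Every knockout mouse lay below every wild-type mouse. The log2 change was -0.83 on chow (SE 0.0972, 1.784-fold, limma adjusted p = 3.2e-06) and -0.93 under UDCA (SE 0.0888, 1.902-fold, adjusted p = 7.96e-06). The difference between these, the genotype by diet interaction, was -0.09 with a 95% confidence interval from -0.365 to 0.179 (limma adjusted p = 0.814).

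The order of the group means was therefore WT_chow at 11.49 ± 0.139 (SD, n = 5), WT_UDCA at 11.43 ± 0.14 (n = 6), KO_chow at 10.65 ± 0.12 (n = 5) and KO_UDCA at 10.51 ± 0.169 (n = 6). Neighbours within a genotype were not called different: KO_UDCA minus KO_chow was -0.15 (interval -0.339 to 0.047, limma adjusted p = 0.372), and WT_UDCA minus WT_chow was -0.05 (interval -0.246 to 0.139). Signal remained in the knockout livers. Since neither the deleted part nor the part read by the probes is known here, this level is a check of the labels but not of transcript loss. In bulk liver, fewer cells of a type and less RNA per cell cannot be told apart, for this gene and for those that follow.

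**Figure D1:**
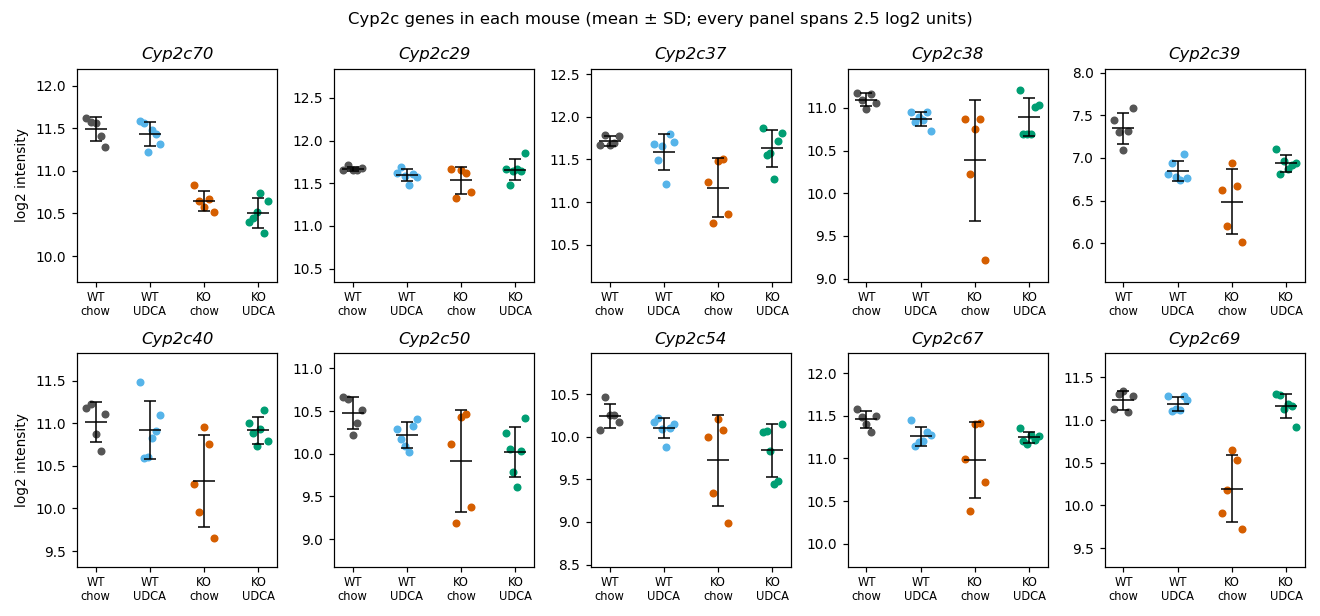
Signal of the 10 Cyp2c genes in log2 intensity (vertical axis, 2.5 log2 units in each panel) in each mouse of the 4 groups (horizontal axis); points are mice and bars are the mean ± SD. Cyp2c70 separates by genotype on both diets, whereas Cyp2c69 is low in KO_chow only among the 4 groups, at 10.2 ± 0.396.

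Knockout mice on chow had lower signal of most relatives as well. In KO_chow against WT_chow, 7 of the 10 genes were called lower and 0 higher, among them 6 of the 9 relatives, where 6.03% of all genes were called lower and 13.7% in either direction. Shares of all genes, here and below, include dim genes, whereas the 10 genes lay above the array medians. In a fit to only the genes above the median gene, 14.5% were called lower and 15.1% higher. In 5 of the 7 no KO_chow mouse overlapped a WT_chow mouse, against 3.2% of all genes called lower without overlap. The 3 relatives not called were Cyp2c29, Cyp2c50 and Cyp2c54. The median change of the 10 genes was -0.625, with all 10 changes below 0, against a median of -0.037 over all genes. Without KO_chow replicates 2 and 5, the lowest pair in most relatives, 3 of the 10 genes were called lower (Cyp2c70, Cyp2c39 and Cyp2c69). The median was then -0.288, and 1.3% of all genes were called lower. Leaving out the lowest mice shrinks a drop in advance, so this fit shows only how far the calls depend on them. A fit to KO_chow and WT_chow alone called 4 (Cyp2c37 in addition).

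Cyp2c69 had the largest change among the 10. The WT_chow mice read 11.13, 11.31, 11.34, 11.1 and 11.28, and the KO_chow mice 9.906, 10.18, 10.65, 10.53 and 9.721. All KO_chow mice lay below all others of the study, since WT_UDCA ran from 11.11 to 11.28 and KO_UDCA from 10.92 to 11.31. The log2 change on chow was -1.04 (SE 0.13, 2.051-fold, limma adjusted p = 8.82e-06), and the call held in 19 of 19 alternative fits (adjusted p up to 0.0025). The change without KO_chow replicates 2 and 5 was -0.871 (limma adjusted p = 0.000175).

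Cyp2c39, which in the mouse is known as a retinoic acid hydroxylase, followed. The WT_chow mice read 7.443, 7.309, 7.09, 7.318 and 7.586, and the KO_chow mice 6.623, 6.198, 6.947, 6.67 and 6.011. The groups did not overlap, with KO_chow replicate 3 nearest to wild type. The log2 change was -0.86 (SE 0.131, 1.814-fold, limma adjusted p = 0.000103), called in 19 of 19 alternative fits (adjusted p up to 0.00809). Leaving out KO_chow replicates 2 and 5 gave -0.603 (limma adjusted p = 0.00153).

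The other 4 called relatives were not called without KO_chow replicates 2 and 5. Cyp2c37, an arachidonic acid hydroxylase, read 11.67, 11.79, 11.67, 11.69 and 11.77 in WT_chow and 11.24, 10.76, 11.48, 11.5 and 10.86 in KO_chow, with no overlap. Its change was -0.55 (SE 0.139, limma adjusted p = 0.00999). KO_chow replicates 2 and 5 were the lowest, and without them the change was -0.309 (limma adjusted p = 0.224). The call held in 18 of 19 alternative fits, among them 10 of 10 with single mice left out.

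Cyp2c38, an arachidonic acid epoxygenase, read 11.18, 11.09, 10.99, 11.16 and 11.06 in WT_chow and 10.87, 10.23, 10.75, 10.87 and 9.213 in KO_chow. Replicate 5 lay far below the other KO_chow mice, and the groups did not overlap. The change was -0.71 (SE 0.207, limma adjusted p = 0.0234). The adjusted p reached 0.0503 without WT_chow replicate 1, 0.0637 without KO_chow replicate 2 and 0.205 over all alternatives.

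Cyp2c40 and Cyp2c67 overlapped between the groups. Cyp2c40, known for hydroxylating arachidonic acid, read 11.18, 11.22, 10.87, 10.67 and 11.11 in WT_chow and 10.29, 9.963, 10.95, 10.76 and 9.655 in KO_chow. KO_chow replicates 3 and 4 lay inside the wild-type range. The change was -0.69 (SE 0.197, limma adjusted p = 0.0204), and leaving out any 1 of WT_chow replicates 1 and 2 or KO_chow replicates 2 and 5 ended the call (adjusted p from 0.0513 to 0.0802).

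Cyp2c67 read 11.58, 11.49, 11.4, 11.31 and 11.5 in WT_chow and 10.99, 10.38, 11.4, 11.41 and 10.72 in KO_chow, where replicates 3 and 4 again lay inside the wild-type range. Its change was -0.48 (SE 0.138, limma adjusted p = 0.0219). The call ended without WT_chow replicate 1, KO_chow replicate 2 or KO_chow replicate 5, with an adjusted p of 0.0549 to 0.0791.

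The remaining 3 relatives gave smaller or more scattered differences on chow. Cyp2c50 and Cyp2c54, both arachidonic acid epoxygenases, changed by -0.56 (SE 0.199) and -0.52 (SE 0.183), with limma adjusted p of 0.0647 and 0.061. Both were called in the fit to only the genes above the median gene (limma adjusted p = 0.036 and 0.0335). Cyp2c50 read 10.66, 10.64, 10.22, 10.36 and 10.51 in WT_chow and 10.12, 9.186, 10.43, 10.47 and 9.379 in KO_chow. Cyp2c54 read 10.08, 10.46, 10.25, 10.25 and 10.17 in WT_chow and 9.993, 9.338, 10.21, 10.08 and 8.991 in KO_chow. In both genes only KO_chow replicates 2 and 5 lay far below the wild-type range.

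Cyp2c29, an epoxygenase known as a target of CAR, had the smallest difference of the 10. It read 11.65, 11.71, 11.66, 11.65 and 11.68 in WT_chow and 11.67, 11.33, 11.66, 11.62 and 11.4 in KO_chow. The log2 change was -0.13 (SE 0.0801, interval -0.3 to 0.031, limma adjusted p = 0.315), and KO_chow replicates 2 and 5 were again the lowest.

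**Figure D2:**
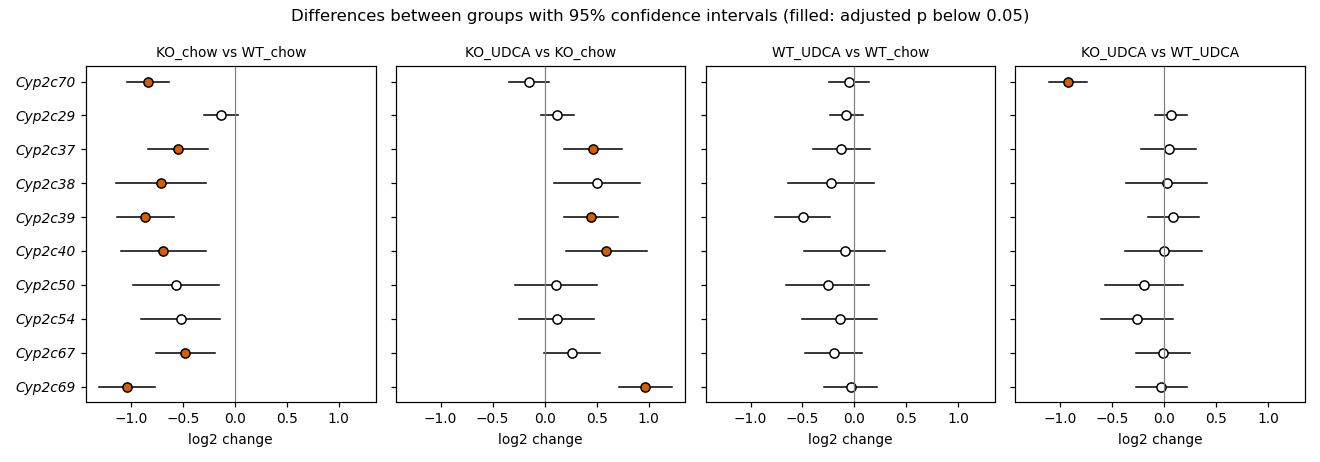
Log2 changes of the 10 genes (rows) in 4 comparisons (panels), with the 95% confidence interval from limma as a line and filled points for an adjusted p below 0.05 over all genes. Filled points number 7 in KO_chow against WT_chow, 4 in KO_UDCA against KO_chow, 0 in WT_UDCA against WT_chow and 1, Cyp2c70, in KO_UDCA against WT_UDCA.

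The knockout mice on chow were not alike. Averaged over the 9 relatives, the difference from the WT_chow mean was -0.508, -0.965, -0.197, -0.259 and -1.145 in KO_chow replicates 1 to 5. The WT_chow mice lay between -0.084 and 0.086, the WT_UDCA mice between -0.323 and -0.057 and the KO_UDCA mice between -0.368 and -0.047. Replicates 2 and 5 were the lowest pair of the KO_chow mice in 8 of the 9 relatives, the exception being Cyp2c69, where replicates 5 and 1 were lowest. Cyp2c70 followed this order only in part. Replicate 5 was the lowest of KO_chow at 10.52, but replicate 2, at 10.65, lay within the range of the other KO_chow mice (10.58 to 10.83).

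Deviations from group means over the 22 arrays were compared as well, which is a description and carries no test. Among the 36 pairs of relatives, Pearson's r ran from 0.143 to 0.876 with a median of 0.646. It was highest for Cyp2c37 with Cyp2c50 (0.876), then Cyp2c50 with Cyp2c67 (0.845) and Cyp2c40 with Cyp2c67 (0.819). The promoters of these pairs were 88.4%, 68.3% and 92.9% identical over 242, 230 and 170 aligned bases. Cyp2c40 with Cyp2c69, at 98.6% identity, had an r of 0.741. The 9 pairs of Cyp2c70 with a relative had r from -0.204 to 0.339 and a median of 0.0901. Arrays share their overall signal level, and probes of similar genes may share RNA. Without KO_chow replicates 2 and 5 the median among relatives was 0.331 (range -0.293 to 0.837), and that of Cyp2c70 with the relatives was -0.121 (range -0.448 to 0.322).

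**Figure D3:**
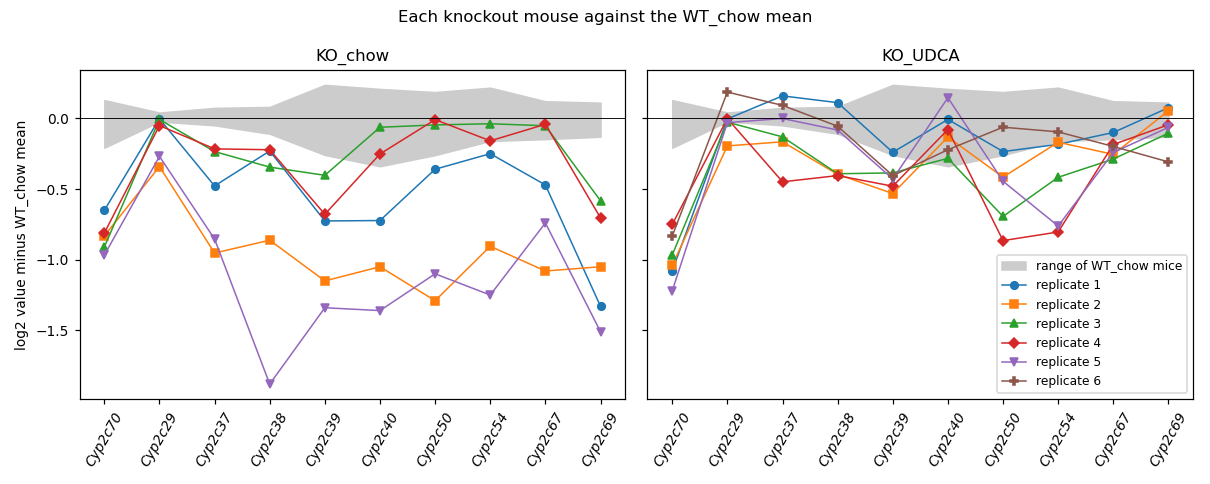
Log2 signal minus the WT_chow mean (vertical axis) for the 10 genes (horizontal axis) in each KO_chow mouse (left) and each KO_UDCA mouse (right); lines join values of 1 mouse, a colour stands for different mice in the panels, and the grey band is the range of the WT_chow mice. KO_chow replicates 2 and 5 lie lowest across most relatives, while Cyp2c70 lies below the band in all knockout mice.

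Of the 9 relatives, 4 rose under UDCA in knockout mice. In KO_UDCA against KO_chow, Cyp2c37, Cyp2c39, Cyp2c40 and Cyp2c69 were called higher and 0 of the 10 genes lower, where 5.03% of all genes were called higher and 11.2% in either direction. The fit to only the genes above the median gene called 12.7% of them higher and 12.6% lower. The median change of the 10 was 0.356, against 0.0327 over all genes. This comparison shares the KO_chow mice with the one above, so a low KO_chow mouse enters both. Without KO_chow replicates 2 and 5, Cyp2c69 alone was called, the median was 0.0357 and 0.708% of all genes were called higher, and a fit to the 2 groups alone also called only Cyp2c69.

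Cyp2c69 rose by 0.97 (SE 0.124, 1.959-fold, limma adjusted p = 1.91e-05) and was called in 20 of 20 alternative fits (adjusted p up to 0.0031). The KO_UDCA mice had a lowest value of 10.92, a median of 11.18 and a highest of 11.31, so that none overlapped the KO_chow mice; it was the only one of the 10 without overlap, against 2.07% of all genes called higher without overlap. The rise without KO_chow replicates 2 and 5 was 0.806 (limma adjusted p = 0.000518).

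Cyp2c39 rose by 0.45 (SE 0.126, limma adjusted p = 0.0225), and its KO_UDCA mice had a lowest value of 6.817, a median of 6.932 and a highest of 7.109. KO_chow replicate 3, at 6.947, lay inside that range. Without KO_chow replicate 2 the adjusted p was 0.0862, without replicate 5 it was 0.093, and without both the change was 0.191 (limma adjusted p = 0.413).

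Cyp2c37 rose by 0.46 (SE 0.134, limma adjusted p = 0.0254), with KO_UDCA values of 11.27 at the lowest, 11.65 at the median and 11.87 at the highest. Leaving out any 1 of KO_chow replicates 2 and 5 or KO_UDCA replicates 1 and 6 ended the call (adjusted p from 0.059 to 0.103). Cyp2c40 rose by 0.59 (SE 0.188, limma adjusted p = 0.0435), with KO_UDCA values of 10.73, 10.91 and 11.16 at the lowest, median and highest, and was called in 9 of 20 alternative fits. Its adjusted p rose above 0.05 on leaving out any 1 of 9 mice (0.0503 to 0.166), which were KO_chow replicates 1, 2 and 5 and all 6 KO_UDCA mice.

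The other relatives were not called in KO_UDCA against KO_chow. Cyp2c38 differed by 0.51 (limma adjusted p = 0.109), Cyp2c67 by 0.26 (adjusted p = 0.226), and Cyp2c29, Cyp2c50 and Cyp2c54 by 0.12, 0.11 and 0.12 (limma adjusted p = 0.361, 0.799 and 0.761). In KO_UDCA the lowest, median and highest mice read 10.69, 10.86 and 11.21 for Cyp2c38, and 11.17, 11.24 and 11.36 for Cyp2c67. For Cyp2c29 they read 11.48, 11.66 and 11.86, so that all 3 genes overlapped KO_chow. Cyp2c50 and Cyp2c54 stayed spread in KO_UDCA, from 9.613 to 10.42 and from 9.44 to 10.15. Their differences were below 0, at -0.314 and -0.256, without KO_chow replicates 2 and 5.

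Under UDCA the genotypes differed measurably in Cyp2c70 alone among the 10 genes. In KO_UDCA against WT_UDCA, 1 of the 10 was called, where 0.0167% of all genes (4, all lower) were called, and Cyp2c70 had the lowest p of all 24011 genes, in a comparison in which it is the targeted gene. The 9 relatives differed by between -0.262 (Cyp2c54, interval -0.608 to 0.083, limma adjusted p = 0.952) and 0.087 (Cyp2c39). For Cyp2c69 the difference was -0.03, with an interval from -0.274 to 0.217. The WT_UDCA mice ran from 11.48 to 11.69 for Cyp2c29, 11.21 to 11.8 for Cyp2c37, 10.59 to 11.48 for Cyp2c40 and 11.14 to 11.45 for Cyp2c67. They ran from 10.02 to 10.41 for Cyp2c50 and from 9.88 to 10.22 for Cyp2c54, where the KO_UDCA mice reached lower, to 9.613 and 9.44. By limma, 1 of the 10 genes had an unadjusted p under 0.05, against 1308 of all genes.

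Set against untreated wild type, treated knockout mice again differed in Cyp2c70. In KO_UDCA against WT_chow, 1 of the 10 genes was called lower (0.0208% of all genes were called lower), Cyp2c70 at -0.98 (SE 0.0931, 1.974-fold, limma adjusted p = 6.83e-06). Cyp2c39, Cyp2c50 and Cyp2c54 differed by -0.41, -0.45 and -0.41, with unadjusted limma p of 0.00334, 0.0265 and 0.0299 and adjusted p of 0.579, 0.828 and 0.839. Cyp2c69 differed by -0.07, with an interval from -0.323 to 0.192. Both genotype contrasts share the KO_UDCA mice.

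In wild-type mice UDCA changed no gene at the adjusted threshold. In WT_UDCA against WT_chow limma called 0 of the 10 genes and 0 of all genes (0%), with an unadjusted p under 0.05 in 1 of the 10 and in 1338 of all genes. All 10 changes were below 0, with a median of -0.134 against 0.0105 over all genes. The 1 gene was Cyp2c39, at 7.349 ± 0.184 in WT_chow (SD, n = 5) and 6.85 ± 0.119 in WT_UDCA (n = 6). Its difference was -0.50 (SE 0.126, interval -0.76 to -0.239, limma adjusted p = 0.511), which ranked 28 among all genes by p. The WT_UDCA mice had a lowest value of 6.746, a median of 6.799 and a highest of 7.046, all below the lowest WT_chow mouse at 7.09. Cyp2c38 also did not overlap, with WT_UDCA values up to 10.95 and WT_chow values from 10.99, at a difference of -0.23 (limma adjusted p = 0.959); 0.65% of all genes had no overlap between these groups.

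The response to UDCA differed between the genotypes in 2 of the 10 genes. The genotype by diet interaction, the UDCA change in knockouts minus that in wild type, was called higher for Cyp2c39 and Cyp2c69, where 0.6% of all genes were called higher and 2.67% in either direction. For Cyp2c69 it was 1.01 (SE 0.176, limma adjusted p = 0.00284), from a UDCA change of -0.04 in wild type and 0.97 in knockouts. For Cyp2c39 it was 0.95 (SE 0.178, limma adjusted p = 0.00495), from -0.50 and 0.45. Both held in 30 of 30 alternative fits, with adjusted p up to 0.0137 and 0.0164. For Cyp2c37, Cyp2c38 and Cyp2c40 the interaction was 0.59, 0.73 and 0.68, with limma adjusted p of 0.0985, 0.178 and 0.185.

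Of the other Cyp2c genes, 6 were measured. Cyp2c65, Cyp2c66 and the pseudogene Cyp2c53-ps read 2.316, 2.128 and 2.444 in WT_chow, far below the array medians, so a fall could hardly show there. Only Cyp2c68, which lies between Cyp2c67 and Cyp2c40, was called, where 6.03% of all genes were called lower on chow. It fell by 0.46 in KO_chow against WT_chow (SE 0.105, limma adjusted p = 0.00437) and rose by 0.31 in KO_UDCA against KO_chow (SE 0.101, adjusted p = 0.0444). Neither difference was called without KO_chow replicates 2 and 5 (limma adjusted p = 0.113 and 0.557). Cyp2c55, named after its values were seen, differed by 1.05 on chow, higher in knockouts (SE 0.435, limma adjusted p = 0.122).

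Some of the factors known to control Cyp2c genes were called lower on chow too. Of 14 measured regulators, 6 were called lower on chow and 0 higher, against 6.03% and 7.69% of all genes. In KO_UDCA against KO_chow 7 were called higher, against 5.03% of all genes. The median changes were -0.144 and 0.359. Fits to the 2 groups alone called 1 lower on chow and 0 in KO_UDCA against KO_chow (unadjusted limma p under 0.05 in 6 and 8). Nr1i3, which encodes CAR, fell by 1.19 (SE 0.256, limma adjusted p = 0.00278) and was 0.90 higher under UDCA (SE 0.245 and adjusted p = 0.0185). Nr1i2, which encodes PXR, fell by 0.47 (SE 0.145, limma adjusted p = 0.03), the hepatocyte factor Cebpa by 0.57 (SE 0.173, adjusted p = 0.0283), and the fatty acid receptor Ppara by 0.53 (SE 0.149, adjusted p = 0.0194). With single mice left out, these chow calls held in 10 of 10 fits for Nr1i3, 5 of 10 for Nr1i2, 6 of 10 for Cebpa and 7 of 10 for Ppara. Hnf4a, named after its value was seen because of the motif above, differed by -0.04 (SE 0.112, limma adjusted p = 0.88). Without KO_chow replicates 2 and 5, limma called 0 of the 14 in either comparison (unadjusted p under 0.05 in 2 and 4), and Nr1i3 differed on chow by -0.799 (adjusted p = 0.0792).

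Other hepatic cytochrome P450 genes were called in the same directions. Of 23 measured hepatic P450 genes outside Cyp2c, 9 were called lower on chow, against 6.03% of all genes. In KO_UDCA against KO_chow 6 were called higher, against 5.03% of all genes. These counts were 1 and 0 without KO_chow replicates 2 and 5 (unadjusted limma p under 0.05 in 7 and 6). Fits to the 2 groups alone called 5 and 3. The most lowered of those called on chow were Cyp3a16 (-2.52, SE 0.79, limma adjusted p = 0.034), Cyp2b13 (-1.53, SE 0.345, adjusted p = 0.00399) and Cyp4a14, a fatty acid hydroxylase (-1.24, SE 0.309, adjusted p = 0.00877). Leaving out single mice ended the chow call of Cyp3a16 in 7 of 10 fits (limma adjusted p up to 0.0996) and those of Cyp2b13 and Cyp4a14 in 0 of 10. Of 6 P450 genes of bile acid synthesis, 4 were called lower on chow and 2 higher in KO_UDCA against KO_chow. The shares of all genes were again 6.03% and 5.03%. Cyp8b1, the sterol 12-alpha-hydroxylase, fell by 2.82 (SE 0.27, limma adjusted p = 2.71e-07) and Cyp7a1, which starts the classical pathway, fell by 2.08 (SE 0.418, adjusted p = 0.00155). Both chow calls held without KO_chow replicates 2 and 5, when 2 of the 6 were called lower on chow and 1, Cyp8b1, higher in KO_UDCA against KO_chow. In that comparison Cyp7a1 differed by 1.45 with all mice (limma adjusted p = 0.0199) and by 0.81 without the pair (adjusted p = 0.126), and the fit to the 2 groups also called 1 of the 6. Of the 3 measured genes that pass electrons to P450 enzymes, Cyb5a, Cyb5b and Cyb5r3, limma called 0 in either comparison (unadjusted p under 0.05 in 1 and 0). Por, also on that list, was not measured, so nothing is known of it here.

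Markers of other cells also differed between KO_chow and WT_chow, and their part in the result was not tested. Of 11 cholangiocyte markers, 10 were called higher in KO_chow, where 7.69% of all genes were called higher. The mean of the list lay 1.015 to 1.722 above the WT_chow mean in KO_chow mice and between -0.059 and 0.049 in WT_chow mice. Of 10 monocyte-derived macrophage markers, 10 were called higher, with list means of 1.407 to 2.906 in KO_chow against -0.157 to 0.088 in WT_chow. KO_chow replicates 2 and 5 had the highest means of both lists, 1.722 and 1.441 for cholangiocytes and 2.906 and 2.515 for macrophages. In KO_UDCA mice the means of these lists were 0.079 to 0.431 and 0.153 to 0.347. The other KO_chow mice did not keep one order. Replicate 1 had a mean of -0.508 for the relatives and the lowest macrophage mean, 1.407. For replicate 3 these values were -0.197 and 1.967. Fibroblast and stellate cell markers were called higher for 8 of 11 and Kupffer cell markers lower for 5 of 7. Of all genes, 6.03% were called lower and 13.7% in either direction. Of 10 hepatocyte markers limma called 0 (unadjusted p under 0.05 in 1), with list means of -0.153 to 0.007 in KO_chow against -0.119 to 0.109 in WT_chow, replicates 2 and 5 being the lowest of KO_chow. Small intestine epithelium markers, which also include genes of the liver, gave 2 higher and 1 lower of 7.

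**Figure D4:**
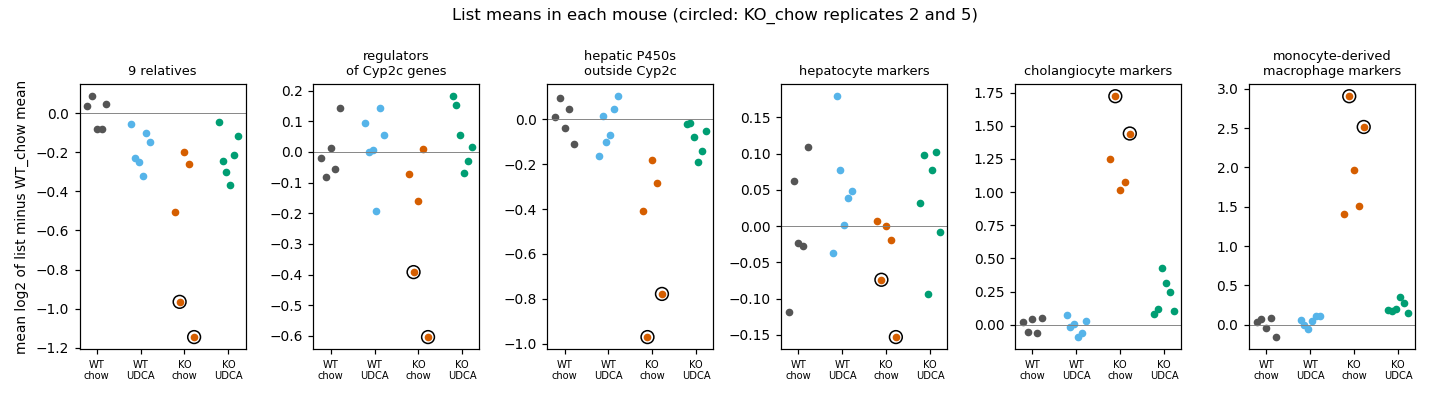
Mean log2 signal of 6 gene lists minus the WT_chow mean (vertical axis, its own scale in each panel) in every mouse of the 4 groups (horizontal axis); circles mark KO_chow replicates 2 and 5. These mice have the lowest means of the 9 relatives, -0.965 and -1.145, and the highest of the macrophage markers, 2.906 and 2.515.

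Outside the Cyp2c family, the nearest measured genes around Cyp2c70 on chromosome 19 were not called lower with it on chow. There 9 of 10 changes were above 0 and the lowest was -0.351. Inside the family, the genes next to it in the cluster, Cyp2c50, Cyp2c54 and Cyp2c37, changed by -0.56, -0.52 and -0.55. Of these, Cyp2c37 was called lower. Of the 10 nearest measured genes outside the family, 5 on each side by RefSeq order, 7 were called higher on chow and 0 lower, where 7.69% of all genes were called higher. In KO_UDCA against KO_chow 4 were called lower, against 6.22% of all genes, and in KO_UDCA against WT_UDCA limma called 0 (unadjusted p under 0.05 in 0). Aldh18a1, an enzyme of proline synthesis, rose by 0.82 on chow (SE 0.177, limma adjusted p = 0.00277), the chromatin remodeller Hells by 0.58 (SE 0.162, adjusted p = 0.0176), and the cytoskeletal gene Pdlim1 by 0.52 (SE 0.174, adjusted p = 0.0488). Limma called 0 of the 10 without KO_chow replicates 2 and 5, both on chow and in KO_UDCA against KO_chow (unadjusted p under 0.05 in 4 and 2), and a fit to the 2 groups called 2 and 1. With single mice left out, the chow call held in 10 of 10 fits for Aldh18a1, 8 of 10 for Hells and 3 of 10 for Pdlim1. Aldh18a1 and Hells were dim, at 4.434 and 4.353 in WT_chow, below the array medians of 4.845 to 4.959.

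Over the 22 arrays, which fall apart by genotype for Cyp2c70, the genes outside the family with the most similar log2 levels were Enho, which encodes the secreted peptide adropin (Pearson's r 0.836, Spearman's rho 0.806), Tafa2, which encodes a secreted chemokine-like protein (0.832 and 0.733), Lncbate1 (0.829 and 0.782), Sult2a1 (0.828 and 0.774) and 1810053B23Rik (0.822 and 0.738). These values are descriptions without a test, and genes that differ between the genotypes rank high in them for that reason. Tafa2, Sult2a1, which encodes a bile acid and steroid sulfotransferase, and 1810053B23Rik were, with Cyp2c70, the 4 genes called lower in KO_UDCA against WT_UDCA, at -0.69, -2.20 and -0.88 (limma adjusted p = 0.0211, 0.0211 and 0.0467). Leaving out single mice ended these calls in 6 of 12 fits for Tafa2, 6 of 12 for Sult2a1 and 10 of 12 for 1810053B23Rik, and in 0 of 12 for Cyp2c70. The KO_UDCA means of Tafa2, Sult2a1 and 1810053B23Rik were 4.54, 4.57 and 4.614, below the array medians of 4.845 to 4.959.

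For the mean of the 9 relatives, in deviations from group means over the 22 arrays, the most similar genes were Slc22a28, an organic anion transporter gene (r 0.916, rho 0.806), Ugt3a1 (0.913 and 0.844), Cyp2e1 (0.895 and 0.836), Lin7a (0.885 and 0.713) and Sult2a8 (0.88 and 0.814). Ugt3a1 encodes a UDP-glycosyltransferase and Cyp2e1 the ethanol-oxidising P450. The same r without KO_chow replicates 2 and 5 was 0.651, 0.794, 0.699, 0.559 and 0.681 in that order. Cyp2e1 itself differed by -0.13 in KO_chow against WT_chow (limma adjusted p = 0.212).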

How the data were processed

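The deposited intensity values are, per the labels, RMA summaries from a probe-level model on an unlogged scale. The submitters' processing notes name RMA; no version and no genome build is given in the sources used here. Values ran from 1.66 to 10284. Of 24973 rows, 24015 had 1 gene symbol, 958 had none, and 4 duplicates were dropped (the row with the highest mean was kept), leaving 24011 genes; 23922 rows were matched to RefSeq GRCm38.p6, which changed 0 symbols. Intensities were taken to log2 without a pseudocount or filter. With limma 3.58.1 (lmFit, eBayes) in R 4.3.3, 1 mean for each group was estimated from the 22 arrays together and 6 comparisons were drawn, two-sided, with Benjamini-Hochberg adjustment over all genes. The fit was tested on simulated data with independent arrays and 1 spread for each gene in all 4 groups. That test therefore does not cover genes that vary more in KO_chow. The number of arrays limits the precision, and a shared spread understates that of KO_chow for genes that vary more there. The design text calls the mice biological replicates. Promoters were aligned with Biopython 1.88.

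The members, gene lists and tests were chosen with earlier results of these data known. The text names the 10 genes in full, up to 3 called genes per list with the largest change on chow, with Nr1i3 and Nr1i2, and the 5 genes most like Cyp2c70 and like the mean of its relatives. Alternatives were a fit to 2 groups, quantile normalization, median centring, log2 of intensity plus 16, a filter on dim genes, a trended robust prior, array weights, sample numbers as blocks, and leaving out mice.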

Additional observations from a re-analysis of the deposited data

Results flagged for a closer look

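Of the 40 groups of the 10 genes (each gene in each of the 4 groups), 0 held a mouse far enough from the others to be picked out by Dixon's criterion, which chance meets in about 1 of 20 groups. Cyp2c69 and Cyp2c39 were picked out because the change under UDCA differed between the genotypes by the limma interaction test. The interaction was 1.008 log2 units for Cyp2c69 and 0.947 for Cyp2c39 (limma adjusted p = 0.00284 and 0.00495). For Cyp2c69 the UDCA change lay near 0 in wild type (-0.04) and was 0.97 in knockouts. For Cyp2c39 it was -0.50 in wild type and 0.45 in knockouts, and the group means under UDCA were 6.85 ± 0.119 in wild type and 6.937 ± 0.0995 in knockouts (SD, n = 6 each).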

How the results depend on the processing

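Across the alternatives, no called difference of the 10 genes changed direction: 277 values of called differences stayed called and 37 lost the call. Among uncalled ones, 11 became called and 26 changed sign. The count of genes called lower in KO_chow against WT_chow was 7, and 4 in the fit to the 2 groups, 3 without KO_chow replicates 2 and 5, and 4 to 9 when single mice were left out (4 without WT_chow replicate 1 or KO_chow replicate 2). The filter on dim genes also called Cyp2c50 and Cyp2c54 (limma adjusted p = 0.036 and 0.0335). Sample numbers as blocks also called Cyp2c54 (limma adjusted p = 0.0486). In KO_UDCA against KO_chow the count was 4, and 1 in the fit to the 2 groups, 1 without KO_chow replicates 2 and 5, and 1 to 5 with single mice left out (1 without KO_chow replicate 2 or 5, 2 without KO_UDCA replicate 1 or 6). The fits with lower counts hold fewer mice, and the cause of the lost calls was not tested. Over all genes, the fit to the 2 groups called 2008 against 3295 on chow and 1454 against 2701 in KO_UDCA against KO_chow, and the fit without KO_chow replicates 2 and 5 called 1089 and 673. That fit called 207 against 642 genes in the interaction.

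Signs changed as follows, in uncalled differences, and the cause was not tested. Without KO_chow replicates 2 and 5, KO_UDCA minus KO_chow was -0.314 for Cyp2c50, -0.256 for Cyp2c54 and -0.023 for Cyp2c67, and the interaction was -0.055 for Cyp2c50 and -0.113 for Cyp2c54. With single mice left out, KO_UDCA minus KO_chow ran from -0.074 to 0.247 for Cyp2c50 and from -0.067 to 0.237 for Cyp2c54. KO_UDCA minus WT_UDCA ran from -0.034 to 0.116 for Cyp2c37, -0.041 to 0.062 for Cyp2c38, -0.07 to 0.108 for Cyp2c40, -0.037 to 0.026 for Cyp2c67 and -0.056 to 0.02 for Cyp2c69. KO_UDCA minus WT_chow ran from -0.051 to 0.025 for Cyp2c29. KO_UDCA minus WT_UDCA was also 0.015 (quantile normalization) and 0.007 (median centring) for Cyp2c40 and -0.06 for Cyp2c38 with sample numbers as blocks. Hnf4a on chow was 0.002 after quantile normalization and ran from -0.104 (without KO_chow replicate 3) to 0.01 (without KO_chow replicate 2). Quantile normalization moved the median of all genes by at most 0.0376. No paired analysis was possible because replicate numbers only name mice and the numbers in the titles are unique to each sample. Whether probes of similar Cyp2c genes share signal was not tested.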
